A study of Auxenochlorella pyrenoidosa with 12 samples.

Results

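A set of 186 assembled transcripts of the green alga Auxenochlorella pyrenoidosa stood lower at a pair of low doses of an oxidant than in unexposed cells, and stood closer to the unexposed level at the highest dose. They were 186 of 29140 contigs in the deposited table, and 1.61% of the 11520 contigs whose mean reached 2 FPKM (fragments per kilobase of contig, scaled to library size), here called measured contigs. The contigs were chosen by their levels in all 12 libraries. A contig was kept when its mean log2 level was at least 0.6 lower than control at 0.1 and at 0.2 EC50 and the fall at 0.5 EC50 was at most 0.4 of that at 0.1 EC50. Every low-dose library also had to lie below every control library. Differences between doses and control are therefore given as a description and not as a test.

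The alga, also known as Chlorella pyrenoidosa, was grown with potassium peroxymonosulfate (PMS), a peroxide-type oxidant used in water treatment, and the series title names rapid degradation of the agent as its theme. RNA of whole cells was sequenced from 3 libraries each of an unexposed control, 0.1 EC50 (1.70 mg/L), 0.2 EC50 (3.40 mg/L) and 0.5 EC50 (8.49 mg/L). EC50 is the concentration with a median effect on the cells. In libraries of whole cultures, fewer cells with a transcript and less of it per cell cannot be told apart. Cultures ran for 12 days, and the sources used here do not give the day of RNA extraction, so a level nearer to control at 0.5 EC50 is a difference between doses and not a course over time. Whether the 3 libraries of a group stem from different cultures is not stated, so p-values cover no more than the spread among these samples, possibly a technical one.

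Chlorella and its relatives are single-celled green algae that live by photosynthesis in a single chloroplast. Peroxymonosulfate oxidises sulfur groups of proteins and can give rise to radicals, and photosynthetic cells meet oxidants with ascorbate and glutathione, peroxidases, catalase and superoxide dismutase. The contigs come from assembly of the reads without a genome, and the table gives them an identifier but no gene name. No contig below can therefore be assigned to any of these systems, and what the 186 transcripts encode is not known here.

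Levels below are scaled FPKM, that is, FPKM divided by 1 factor per library (0.8869 to 1.121), so that the typical contig is equal across libraries. Differences are on log2(scaled FPKM + 1), which understates the change of low contigs. Depth is unknown, and summed FPKM lay between 503295 and 561291 per library. In 4 libraries (0.2 EC50 replicate 2, 0.1 EC50 replicates 2 and 3, control replicate 2) the low values shared fewer common steps with control replicate 1 than in the other 8. The most common ratio to control replicate 1, in a log2 window of 0.01, held 0.74% to 1.16% of low values in these 4, and 1.62% to 3.79% in the 7 others. Over all pairs of libraries the split was not clean: it was 1.2% to 3.79% for pairs within the 8 and 0.704% to 2.01% for pairs with at least 1 of the 4. Of the 6 low-dose libraries 3 belong to these 4, and of the 0.5 EC50 libraries none, so values are also given without these 4.

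The summed level of the 186 contigs was 3987, 3887 and 4196 scaled FPKM in the controls and 1903, 1687 and 1794 at 0.1 EC50. It was 1711, 1707 and 1921 at 0.2 EC50 and 3465, 3625 and 3555 at 0.5 EC50. The group means were 4023 ± 158 for the unexposed cells, 1794 ± 108 for 0.1 EC50, 1780 ± 122 for 0.2 EC50 and 3548 ± 80.1 for 0.5 EC50 (SD, n = 3). Both low doses thus held under 45% of the control sum (44.6% and 44.2%), and 0.5 EC50 held 88.2%. No library of one of these 3 levels of exposure (unexposed, low, highest) reached the range of another. A single contig, TRINITY_DN4062_c0_g1_i1_3, made up 24.3% of the control sum. Without it the shares of the control sum were 44.6%, 45.2% and 86.3%. The shares thus changed little, but the rule demands the low-dose falls of every contig and limits the fall at 0.5 EC50. The direction of the relation between the groups was therefore set in advance, with or without the most abundant contig.

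That contig, chosen for description after its values were seen, had 958.8, 1084 and 888.5 scaled FPKM in the controls. It had 474.1, 451.1 and 385.7 at 0.1 EC50, 355.0, 418.4 and 432.3 at 0.2 EC50, and 782.9, 1024 and 954.7 at 0.5 EC50. Its 0.5 EC50 values overlapped the controls, and its low-dose values lay far below both. Most of the set was far less abundant: the median control level was 8.38 scaled FPKM, against 7.43 for all measured contigs. Control levels were under 5 in 42 contigs, from 5 to 20 in 110, from 20 to 100 in 30 and at or over 100 in 4. The share of measured contigs kept was 1.01% of those under 5, 2.51% of those from 5 to 10, 2.03% from 10 to 20, and 1.32% of those at 20 or more. All of these ranges of control level were represented in the set. The minimum mean of 2 FPKM kept out rare transcripts in advance, and the log2(scaled FPKM + 1) scale makes the limits harder to reach for low contigs.

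Contig by contig, the median level was 44.8% of control at 0.1 EC50 (quartiles 34.0% and 53.7%), 47.9% at 0.2 EC50 (38.1% and 55.2%) and 86.2% at 0.5 EC50 (77.2% and 101%). On the log2 scale the medians were -0.94, -0.88 and -0.19, where the same medians over all 16732 contigs tested were 0.00292, -0.0330 and 0.0515. With those 4 libraries removed and the rest scaled anew, the medians of the 186 contigs were -0.96, -0.86 and -0.22, with 1 library left at 0.1 EC50. The lowest level at 0.1 EC50 was 8.53% of control and the highest was 62.3%. A fall of at least 1 log2 unit was seen in 83 contigs at 0.1 EC50, in 67 at 0.2 EC50 and in 56 at both.

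**Figure D1:**
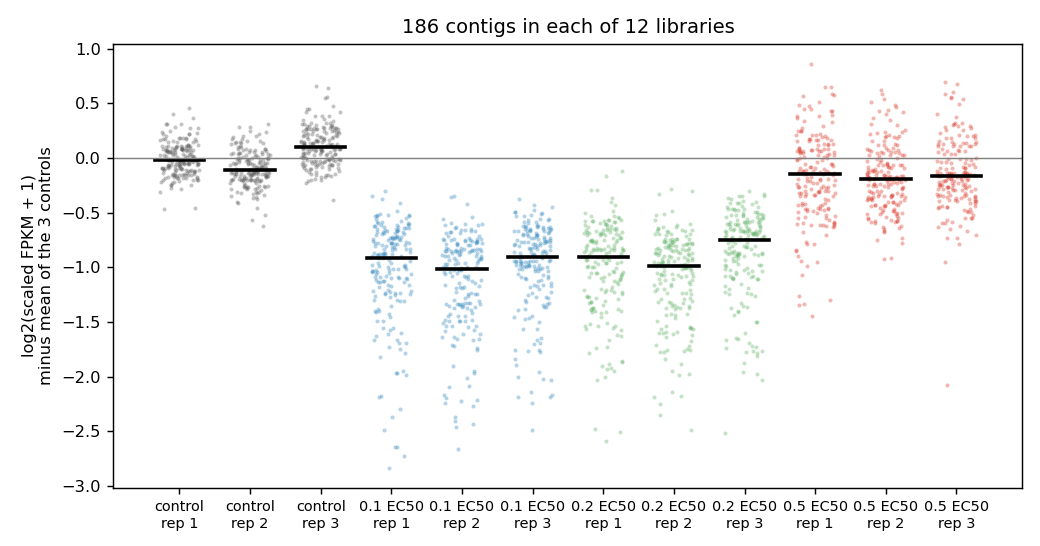
Level of each of the 186 contigs in each library, as log2(scaled FPKM + 1) minus the mean of the 3 controls, with 1 point per contig and a bar at the median. The medians lay at -0.75 to -1.02 in the 6 low-dose libraries and at -0.15 to -0.19 at 0.5 EC50.

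Libraries of a group were close to each other. The median contig stood at -0.92, -1.02 and -0.91 relative to the control mean in replicates 1 to 3 of 0.1 EC50. It stood at -0.90, -0.99 and -0.75 at 0.2 EC50 and at -0.15, -0.19 and -0.17 at 0.5 EC50. The controls themselves ranged from -0.11 in replicate 2 to 0.10 in replicate 3, and control replicate 3 was the highest control in 109 of the 186 contigs. Replicate 2 was the lowest library of its group in 110 contigs at 0.2 EC50 and in 102 at 0.1 EC50. Over all measured contigs these medians lay between -0.0432 and 0.0451 in the 12 libraries. The rule demands a fall of at least 0.6 at both low doses, so the larger shift of the 186 contigs there is a description.

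Among contigs tested with limma's moderated test (Benjamini-Hochberg adjusted p under 0.05), 5.56% were called lower at 0.1 EC50 than in control, and of the 186 contigs 170 were. At 0.2 EC50, 5.53% of all and 169 of the 186 were called lower. The share of all called higher was 4.57% at 0.1 EC50 and 5.6% at 0.2 EC50, and of the 186 it was 0 at both. The rule used these contrasts, so nothing is read from the counts. They were 42 and 86 when the 4 libraries were left out.

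Of the 186 contigs, TRINITY_DN3211_c0_g1_i2_3 had the largest fall at 0.1 EC50. It was at 13.3, 14.03 and 17.2 scaled FPKM in the controls and at 1.38, 1.86 and 1.80 at 0.1 EC50. At 0.2 EC50 it was at 1.77, 2.47 and 2.85, and at 0.5 EC50 at 5.38, 7.35 and 8.88. The low doses left 11.3% and 15.9% of its control mean, and at 0.5 EC50 it stood at 48.6%, between the low doses and the control without touching either. Its log2 differences from control were -2.56, -2.24 and -0.96, each with an SE of 0.18.

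TRINITY_DN10812_c0_g1_i1_4 had the largest fall at 0.2 EC50 and the second largest at 0.1 EC50. Its controls were at 12.3, 10.1 and 15.1 scaled FPKM, its 0.1 EC50 libraries at 1.14, 1.47 and 2.02, and its 0.2 EC50 libraries at 1.22, 1.81 and 1.33. At 0.5 EC50 it was at 4.57, 7.05 and 9.95. The highest of these came close to the lowest control without reaching it, while the 6 low-dose libraries stayed at or under 2.02. It also had the largest difference between 0.5 and 0.2 EC50, 1.69 on the log2 scale. Its difference from control at 0.1 EC50 moved from -2.41 to -2.78 without the 4 libraries.

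The largest difference between 0.5 and 0.1 EC50 was 1.74, in TRINITY_DN933_c0_g1_i1_1. Its controls were at 21.6, 22.3 and 35.7 scaled FPKM, the 0.1 EC50 libraries at 4.18, 3.24 and 4.89, the 0.2 EC50 libraries at 5.69, 4.89 and 7.28, and the 0.5 EC50 libraries at 13.4, 16.2 and 18.4. Next came TRINITY_DN14805_c0_g1_i1_3 with 1.71. It was at 27.05, 26.99 and 31.5 scaled FPKM in the controls, at 7.85, 4.67 and 5.47 at 0.1 EC50, at 8.29, 6.46 and 9.38 at 0.2 EC50, and at 20.2, 22.4 and 22.1 at 0.5 EC50. Both stood at 0.5 EC50 well above every low-dose library and below every control, at 60.4% and 75.6% of the control mean.

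**Figure D2:**
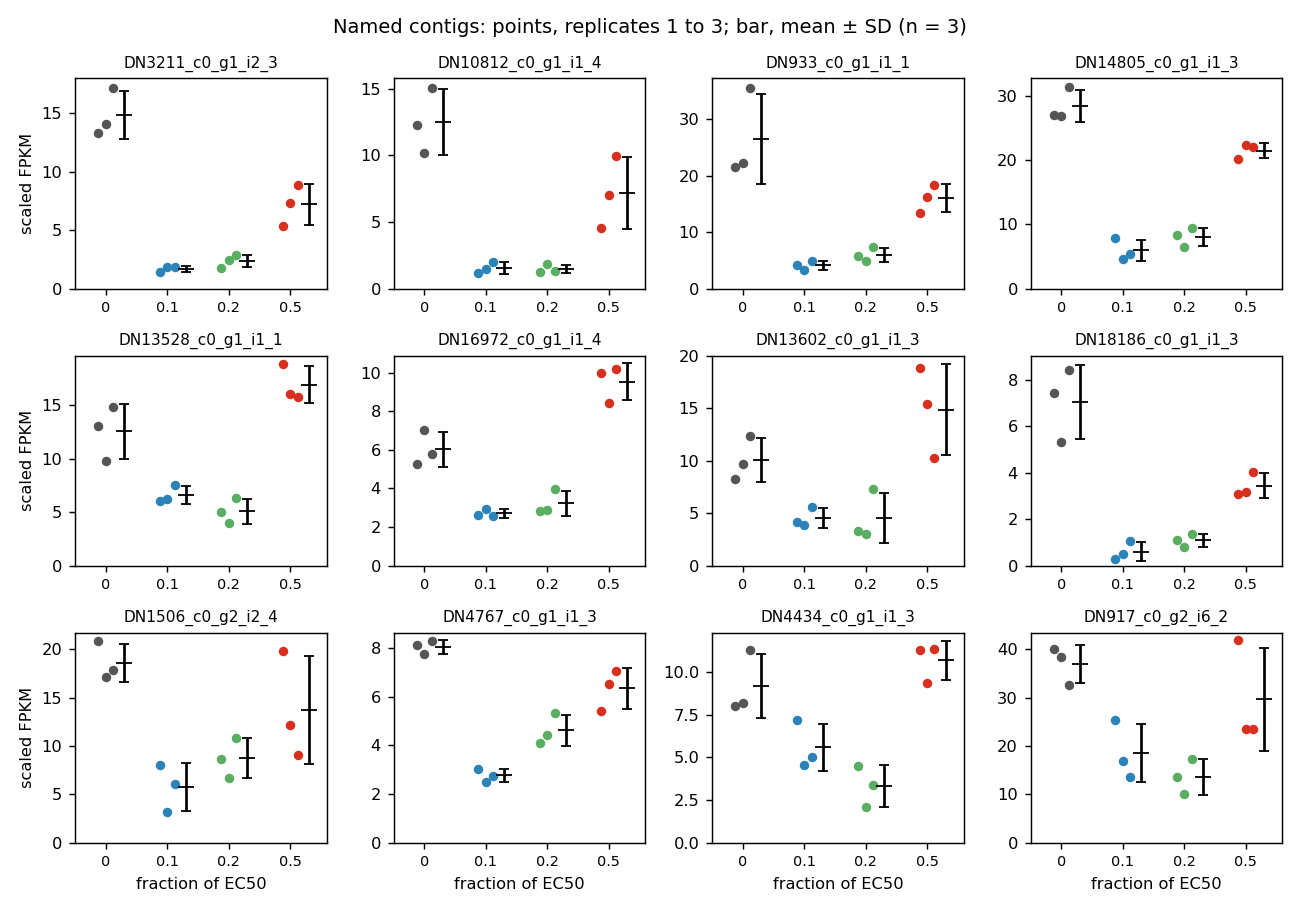
Scaled FPKM of the 12 contigs named by rule against dose as a fraction of EC50, with points for replicates 1 to 3 and the mean ± SD beside them (n = 3). In each of them all 6 low-dose points lie under the 3 control points, as the rule demands, and the 0.5 EC50 points lie below, among or above the controls.

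The contigs were sorted into 3 kinds by where their 0.5 EC50 libraries lay relative to the controls. The kinds ran into each other in mean level at 0.5 EC50. It was 48.6% to 89.9% of control in those below every control, 56.8% to 147.1% in those overlapping and 117.5% to 166.5% in those above. The sorting thus also depends on the spread among replicates. In 118 of 186 contigs (63.4%) the 0.5 EC50 libraries overlapped the controls, where 63.6% of all measured contigs did so. In 58 contigs (31.2%) all 3 libraries at 0.5 EC50 lay below every control, against 18.1% of all. In 10 contigs (5.38%) they lay above every control, against 18.3% of all. The rule limits the fall at 0.5 EC50, so these shares are a description. The 58 contigs that stayed below control had the deeper falls by their medians, though single contigs of the 3 kinds overlapped in depth. Their median level was 33.7% of control at 0.1 EC50, 36.7% at 0.2 EC50 and 73.0% at 0.5 EC50. The 118 contigs in overlap stood at 48.9%, 50.5% and 93.1%, and the 10 above control at 51.9%, 54.1% and 130%. Since the limit at 0.5 EC50 grows with the fall at 0.1 EC50, the rule itself allows a deeper fall to leave a larger remainder.

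Among all tested contigs limma called 3.9% higher and 4.02% lower at 0.5 EC50 than in control. Among the 186 it called 3 (1.61%) higher and 12 (6.45%) lower, and the rule limits the fall there. With FPKM as deposited the counts were 3 and 2, and with an equal total in every library 2 and 2. Without control replicate 3 or 0.5 EC50 replicate 2 only 1 contig was called. The shares of all contigs under these alternatives are not given here, so nothing is read from the counts. A missing call does not show that a level had returned to that of the control. At 0.5 EC50 limma called 162 of the 186 contigs higher and 0 lower than at 0.1 EC50, where it called 6.59% and 5.77% of all tested. Relative to 0.2 EC50 it called 126 higher and 0 lower, and 3.6% and 2.13% of all. Fewer were called higher in both comparisons without the 4 libraries, with 1 library left at 0.1 EC50. With 0.1 EC50 replicate 2 left out the first was 107, and without 0.2 EC50 replicate 1, 0.5 EC50 replicate 2 or 0.5 EC50 replicate 3 the second was 73, 76 and 79. The rule fixes the direction of the first for every contig. It fixes that of the second except in the 28 contigs with a fall over 1.5 log2 units at 0.1 EC50, so neither count is read as a test.

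All 3 libraries at 0.5 EC50 lay above all 6 low-dose libraries in 168 of the 186 contigs, against 12.6% of all measured contigs. In the other 18 a 0.5 EC50 library reached down to a low-dose one, and the lowest 0.5 EC50 library was replicate 1 in 6 of them, replicate 2 in 3 and replicate 3 in 9. No single library at 0.5 EC50 accounted for the overlap. The 0.5 EC50 libraries of a contig spanned more than 1 log2 unit in 7 of the 186 contigs and in 889 of the 11520 measured contigs.

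Some contigs were higher at 0.5 EC50 than in the control. TRINITY_DN16972_c0_g1_i1_4 had the largest such difference among contigs with a control mean of at least 5 scaled FPKM, 0.58 on the log2 scale with an SE of 0.14. It was at 5.28, 7.05 and 5.80 scaled FPKM in the controls, at 2.61, 2.95 and 2.55 at 0.1 EC50, at 2.83, 2.89 and 3.96 at 0.2 EC50, and at 10.0, 8.42 and 10.2 at 0.5 EC50. Its mean was 44.7% of control at 0.1 EC50 and 158% at 0.5 EC50, and no 0.5 EC50 library overlapped a control.

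TRINITY_DN13602_c0_g1_i1_3 was at 8.24, 9.68 and 12.3 scaled FPKM in the controls and at 18.9, 15.4 and 10.3 at 0.5 EC50, a log2 difference of 0.49 with overlap between the groups. At 0.1 EC50 it was at 4.11, 3.83 and 5.61 and at 0.2 EC50 at 3.31, 3.06 and 7.31. TRINITY_DN13528_c0_g1_i1_1 was at 13.1, 9.78 and 14.8 scaled FPKM in the controls, at 6.01, 6.18 and 7.52 at 0.1 EC50, at 5.03, 3.94 and 6.27 at 0.2 EC50 and at 18.9, 16.0 and 15.7 at 0.5 EC50. It was the contig with the second largest difference between 0.5 and 0.2 EC50 (1.57 on the log2 scale), and its 0.5 EC50 libraries all lay above its controls. In all, 47 contigs had a higher mean log2 level at 0.5 EC50 than in control and 139 a lower one, and in 80 the means were within 0.2 log2 units. Over all measured contigs the median of this difference was 0.0230, with quartiles of -0.225 and 0.283.

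At the other end, the contigs with the lowest level at 0.5 EC50 relative to control were TRINITY_DN3211_c0_g1_i2_3, given above, and TRINITY_DN18186_c0_g1_i1_3. The latter was at 7.41, 5.31 and 8.40 scaled FPKM in the controls, at 0.268, 0.493 and 1.04 at 0.1 EC50, at 1.09, 0.803 and 1.37 at 0.2 EC50, and at 3.10, 3.17 and 4.05 at 0.5 EC50. It had the smallest share of control left at 0.1 EC50 of all 186 contigs (8.53%) and reached 48.8% at 0.5 EC50. Its log2 differences from control were -2.34, -1.94 and -0.84, each with an SE of 0.21. The first of these was -2.84 when the 4 libraries were left out.

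The 186 contigs are a section of a wider set and not a separate class. In all, 412 contigs (3.58% of those measured) were lowered at both low doses by the same limits, and the rule kept those with the smaller fall at 0.5 EC50. The ratio of the fall at 0.5 to that at 0.1 EC50 was under 0 in 47 contigs. It lay between 0.2 and 0.3 in 34, between 0.3 and 0.4 in 60, between 0.4 and 0.5 in 41 and between 0.5 and 0.6 in 43, with no gap at the limit of 0.4. The contigs just inside that limit had a ratio of 0.395 and those just outside 0.404 and 0.406. The 226 contigs outside it had median levels of 45.4% of control at 0.1 EC50, 44.3% at 0.2 EC50 and 53.7% at 0.5 EC50. Their low-dose levels were thus close to those of the 186 contigs, and the groups were parted by the highest dose, as the rule sets it.

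**Figure D3:**
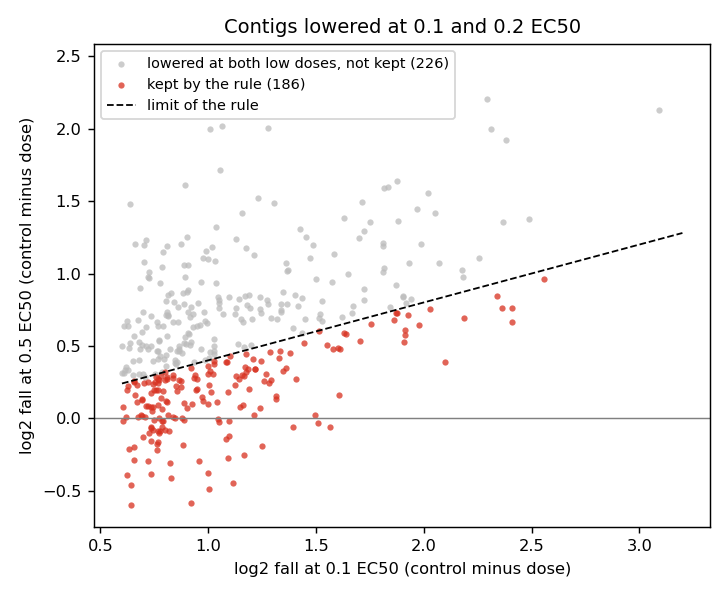
Fall from control at 0.5 EC50 against fall at 0.1 EC50 (log2, control minus dose) for the 412 contigs lowered at both low doses, with 1 point per contig, the 186 kept in red and the limit of the rule as a dashed line. The points run across the limit without a gap, and 47 of them lie under 0, which is above the control level.

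At the other limits, falls at 0.1 EC50 of 0.604 were kept and one of 0.596 was not, and a fall at 0.2 EC50 of 0.602 was kept and one of 0.599 was not. A further 36 contigs missed only the limit at 0.1 EC50, 72 only that at 0.2 EC50, 62 only the demand for no overlap and 100 only the minimum mean level. The lowest mean kept was 2.06 FPKM and the highest mean missed was 1.99 FPKM. Under the same criteria with the signs turned, 297 contigs were raised at both low doses and 61 of them were back near control at 0.5 EC50.

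The rule sets no direct limit on the difference between 0.2 and 0.1 EC50, a doubling of dose, and leaves its sign free. The rule still bears on its size, since both falls must reach 0.6 log2 units. For a given fall at 0.1 EC50, the level at 0.2 EC50 can be higher only by the part of that fall beyond 0.6. The same holds with the doses exchanged, so nearness of the low doses is partly set in advance. The limit at 0.5 EC50 also refers to the fall at 0.1 EC50 and so favours contigs that are lower at 0.1 EC50. No contig of the 186 and none of the 16732 tested was called in limma's test, in either direction (0% and 0%), and the lowest adjusted p among the 186 was 0.224. At an unadjusted p under 0.05 there were 13 contigs higher and 5 lower at 0.2 EC50 among the 186, and 950 and 996 among all tested. The median difference was 0.05 on the log2 scale over the 186 contigs and -0.00967 over all tested, with 125 of the 186 higher at 0.2 EC50 and 61 lower. With the limit set against the mean of both low-dose falls, an alternative chosen after seeing the data, 186 contigs were kept with a median of 0.04. With the limit set against the fall at 0.2 EC50, also chosen after seeing the data, it was 0.03 over 171 contigs.

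The 95% interval of this difference reached a median of 0.35 log2 units to each side over the 186 contigs. It lay within 1 log2 unit of 0 on both sides in 175 contigs and within 0.5 in 88. The 3 libraries at 0.2 EC50 lay above all 3 at 0.1 EC50 in 23 of the 186 contigs (12.4%, against 8.81% of all measured) and below them in 6 (3.23%, against 7.58%).

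**Figure D4:**
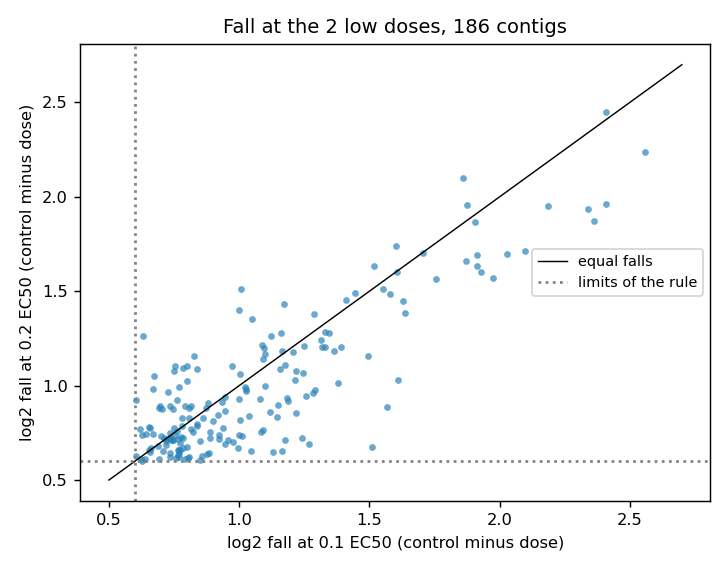
Fall from control at 0.2 EC50 against fall at 0.1 EC50 (log2, control minus dose), with 1 point for each of the 186 contigs, a line at equal falls and dotted lines at the limits of 0.6. The points follow the line, with 125 contigs under it (higher at 0.2 EC50) and 61 above it. Both falls are taken from the same control mean and must reach 0.6, so nearness to the line is partly set in advance.

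Over the 186 contigs the difference ran from -0.63 to 0.84. Its extremes among contigs with a control mean of at least 5 scaled FPKM follow, since lower contigs were not named. TRINITY_DN4767_c0_g1_i1_3 was at 3.05, 2.50 and 2.75 scaled FPKM at 0.1 EC50 and at 4.11, 4.41 and 5.34 at 0.2 EC50. The groups did not overlap, and the difference was 0.57 on the log2 scale with a 95% interval from 0.31 to 0.84 and an adjusted p of 0.224 in limma's test. Its level went on to 5.43, 6.53 and 7.05 at 0.5 EC50, below its controls at 8.11, 7.73 and 8.30. It thus stood in order of dose among the exposed groups, all of them under the control.

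TRINITY_DN1506_c0_g2_i2_4 had a mean difference of 0.58, with an interval from -0.11 to 1.27 (limma adjusted p = 0.497). It was at 8.04, 3.14 and 6.05 scaled FPKM at 0.1 EC50 and at 8.71, 6.66 and 10.8 at 0.2 EC50, which overlap. It was at 20.9, 17.1 and 17.9 in the controls, and at 0.5 EC50 its libraries lay apart from each other at 19.9, 12.2 and 9.11.

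In the other direction, TRINITY_DN4434_c0_g1_i1_3 was at 7.16, 4.58 and 5.03 scaled FPKM at 0.1 EC50 and at 4.50, 2.07 and 3.37 at 0.2 EC50. The difference was -0.63 with an interval from -1.12 to -0.14 (limma adjusted p = 0.336), and all 3 libraries at 0.2 EC50 were the lower ones. Its controls were at 8.01, 8.19 and 11.3 and its 0.5 EC50 libraries at 11.3, 9.36 and 11.4.

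TRINITY_DN917_c0_g2_i6_2 was at 25.3, 16.8 and 13.5 scaled FPKM at 0.1 EC50 and at 13.5, 10.0 and 17.3 at 0.2 EC50, with overlap and a difference of -0.40 (interval -1.01 to 0.20, limma adjusted p = 0.588). It was at 40.0, 38.4 and 32.5 in the controls and at 41.8, 23.4 and 23.6 at 0.5 EC50. Replicate 1 was the highest library at 0.1 and at 0.5 EC50. Its log2 difference from control at 0.1 EC50 moved from -0.999 to -0.48 without the 4 libraries.

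Contig names did not enter the rule. They are built like names from the Trinity assembler, with 1 more number (1, 2, 3 or 4) at the end that the sources used here do not explain. Of the 186 contigs 90 (48.4%) had names ending in 3, where 26.3% of the measured contigs did, and 8 (4.3%) had names ending in 2, against 18.1%. Names ending in 1 made up 24.2% against 23.6%, and names ending in 4 made up 23.1% against 32.1%. Expressed per number, 2.97% of contigs with names ending in 3 were kept, 1.66% of those ending in 1, 1.16% of those ending in 4 and 0.384% of those ending in 2.

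The uneven shares were already present among the 412 contigs lowered at both low doses, of which 47.1% ended in 3 and 6.31% in 2. Within those 412 the share kept by the limit at 0.5 EC50 was 46.4% for names ending in 3, 41.7% for 1, 51.2% for 4, and 30.8% (8 of 26) for 2. Over all measured contigs, names ending in 3 had median log2 differences from control of -0.0633 at 0.1 EC50 and -0.126 at 0.2 EC50, and names ending in 2 had 0.0840 and 0.0324. Names ending in 1 had 0.0107 and -0.0598, and names ending in 4 had 0.0487 and 0.0591. At 0.1 EC50 the order of these medians from lowest to highest was that of the shares kept from highest to lowest. At 0.2 EC50 it differed, since names ending in 4 stood above those ending in 2 and were kept more often. The part of these shifts in the uneven shares was not tested.

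**Figure D5:**
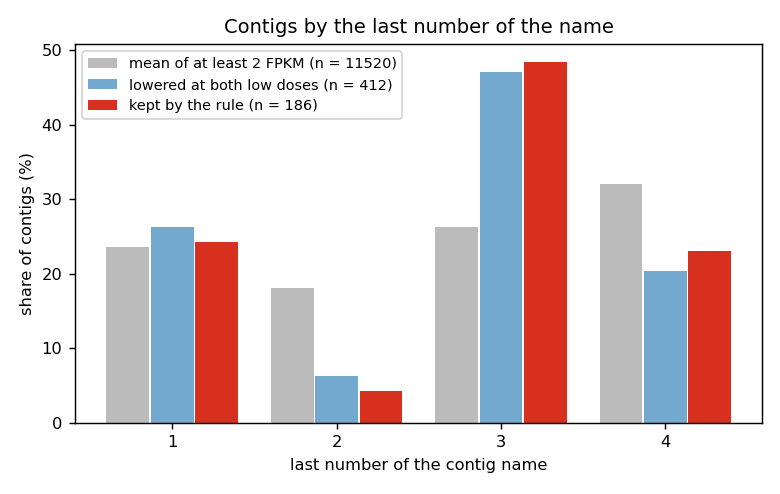
Share of contigs by the last number of the name (%), for the 11520 measured contigs, the 412 lowered at both low doses and the 186 kept. Names ending in 3 rise from 26.3% to 47.1% and 48.4%, and names ending in 2 drop from 18.1% to 6.31% and 4.3%.

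The last number matters for reading the names. Each combination of Trinity gene and last number occurred once in the table (29140 combinations for 29140 contigs), so none of the 186 contigs had a second isoform of the same gene and number in the table. Names that differ only in the last number did not share a profile: over 888 such pairs of measured contigs, the median correlation across the 12 libraries was 0.000864, with quartiles of -0.29 and 0.29. Of the 186 contigs 70 had a namesake with another last number somewhere in the table. The identifiers therefore have to be read with their last number. With no sequences in the files used here, whether any of the 186 contigs are near-copies that share reads could not be examined.

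Within the 186 contigs the last number made little difference to the size of the fall. The median fall at 0.1 EC50 was 0.999 for names ending in 3, 0.94 for 1, 0.92 for 4 and 0.81 for 2. At 0.5 EC50 it was 0.19, 0.20, 0.18 and 0.26 in the same order. By control level, contigs under 5 scaled FPKM in the controls had medians of 43.3%, 48.1% and 89.8% of control at the rising doses. Those from 5 to 10 had 45.9%, 48.7% and 85.3%, and those from 10 to 20 had 47.6%, 52.2% and 88.1%. Contigs at 20 or more had 42.3%, 42.6% and 84.1%. The rule limits these shares, so they are a description. Of the 186 contigs 2 were listed at exactly 0, both in 0.1 EC50 replicate 1. Another, TRINITY_DN727_c0_g3_i1_3, chosen after its values were seen, was at 1.18e-16 scaled FPKM in that library and at 2.82e-14 in 0.2 EC50 replicate 2.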

How the data were processed

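Total RNA was made into Illumina TruSeq libraries, per the labels' protocols. The authors deposited 1 table of FPKM for 12 libraries and 29140 contigs, whose unit comes from its title. The sources used here do not give the assembly, alignment, estimation or filtering. Sample titles gave the dose groups.

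FPKM were divided by the median ratio to contig geometric means over the 10427 contigs above 1 FPKM in all libraries. Log2(scaled FPKM + 1) was tested with limma 3.58.1 in R 4.3.3 (prior trend, two-sided, 1 fit of 4 groups with 8 residual degrees of freedom) for the 16732 contigs whose mean reached 1 FPKM, adjusted over all of them by Benjamini-Hochberg. Procedures were tested on simulated data. Python 3.11.15 with matplotlib 3.10.9 drew the figures.

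Named contigs had a control mean of at least 5 scaled FPKM and the 2 largest differences in each comparison. Members, the set of 4 libraries, lists and alternatives were chosen with earlier results of these data known. No gene list could be matched to contigs.

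Alternatives covered scaling, pseudocount, filters, limits of the rule, the replicate number as a block, prior trend, library weights, fits of 2 groups and leaving out libraries. Low values for the steps lay between 0.01 and 1 FPKM.

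Replicate numbers were checked as pairs by correlating deviations from group means. For 0.2 with 0.1 EC50 all 3 same-numbered pairs were over 0.1 (0.196, 0.239 and 0.293), so the numbers may pair these libraries, a hint from the data that no label states. In the other comparisons at least 1 pair was not. Differently numbered pairs of 0.2 with 0.1 EC50 lay between -0.19 and -0.06. Elsewhere a differently numbered pair reached 0.466 (0.2 EC50 replicate 1 with control replicate 3), above every same-numbered pair, so the hint is weak.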

Additional observations from a re-analysis of the deposited data

How the results depend on the processing

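The number of contigs kept was 286 without a filter, 109 with a minimum mean of 5 FPKM and 91 with a minimum fall of 0.8, and 162 to 221 with 1 library left out. It was within 1.5 times of 186 under the 3 other scalings (247 as deposited, with 174 of the 186 among them, 232 with an equal total, with 166, and 131 after quantile normalization, with 118). It was 198 without the 4 libraries whose low values step differently, of which 125 were shared. The median log2 difference at 0.5 EC50 was -0.076 as deposited, those at 0.1 and 0.2 EC50 were -1.13 and -1.04 with a pseudocount of 0.1, and the median of 0.2 minus 0.1 EC50 was 0.19 with an equal total.

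Of the 186 contigs 15 were called at 0.5 EC50 against control. This count was 5 as deposited, 4 with an equal total, 5 without a filter, 9 without the prior trend, 23 with library weights, 8 in a fit of these groups only and 1 to 15 with 1 library left out. With a minimum mean of 5 FPKM, which leaves 109 of the 186 to be tested, 103, 105 and 104 were called for 0.1 and 0.2 EC50 against control and 0.5 against 0.1 EC50. Leaving out the 4 libraries gave 42, 86 and 3 for the doses against control in rising order, 5 for 0.5 against 0.1 EC50 and 38 for 0.5 against 0.2 EC50. A fit of 2 groups gave 49 for the last. With 1 library left out, 107 to 167 were called for 0.5 against 0.1 EC50, 73 to 124 for 0.5 against 0.2 EC50, 142 to 173 and 131 to 170 for 0.1 and 0.2 EC50 against control. The causes of these moves were not tested. The shares of all contigs under these alternatives are not given here, so nothing is read from these counts. No member was called between 0.2 and 0.1 EC50 under any alternative run.

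With the replicate number as a block the counts were 176, 174, 21, 168, 144 and 0. The shares of all contigs in that fit are not given here either, so nothing is read from them. Over all groups same-numbered libraries deviated together only in part. Correlations ran from -0.24 to 0.29 and were over 0.1 in 8 of 18 pairs. Of 12 libraries 8 were closest to their own number. No label states that equal numbers are pairs, so the numbers are not taken as pairs there. The exception was 0.2 with 0.1 EC50. The block in a fit of these 6 libraries only, chosen after seeing the data, also called 0 of the 186 and 0 of all tested. At an unadjusted limma p under 0.05, 11 of the 186 were higher and 4 lower, and the share of all is not given here. Of 912 values of named contigs under alternatives, 13 moved by more than the spread between replicates and 0 reversed a called direction. Depth is unknown, and 3 libraries a group limit what could be called.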
